A study of Mus musculus with 8 samples.

Results

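The 10 genes described here encode RNA-binding proteins that decide which exons are kept in an mRNA. They are Qk, Mbnl1, Mbnl2, Ptbp1, Ptbp2, Rbfox2, Celf1, Celf2, Hnrnpa1 and Srsf1, and they were taken by gene symbol from a table of 24346 genes. All 10 were present and all 10 passed the filter on low values, a mean over the libraries of 1 FPKM or more, which 12328 genes passed. FPKM counts the sequenced fragments of a gene per unit of transcript length and of library size, so that levels of different genes can be compared per unit of length. The symbols give each gene as a whole. Isoforms and exon inclusion were not measured in these values.

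RNA-seq gave 8 libraries of cultured induced immature oligodendrocytes (iOLs), 4 labelled WT, called Med23+/+ here, and 4 labelled MED23KO, called Med23-/-. In both groups oligodendrocyte precursor cells (OPCs) had been immunopanned on antibody to CD140a, the product of Pdgfra, from mouse brain at postnatal day 7. They were first grown in medium with mitogens. They were then kept for 1 day in 15 nM T3, the active thyroid hormone, with 10 ng/mL ciliary neurotrophic factor. The Med23-/- cells carry floxed Med23 and a Cre driven from Olig1, which acts in the oligodendrocyte lineage, and the study gives the control littermates of this line as floxed without Cre. Whether the libraries of a group came from separate animals or cultures is not given in the sources used here, so p-values measure the spread between these libraries, which may be technical.

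Med23, the targeted gene, had 12.5 ± 0.225 FPKM in libraries labelled WT and 8.26 ± 0.247 FPKM in the libraries labelled as knockout (SD, n = 4 per genotype; limma adjusted p = 0.000353), so the transcript as counted over the whole gene was lower and not absent. Read counts were not used here and the depth of each library is unknown, but the 8 libraries each had between 15941 and 16469 genes above 0. Of 8 oligodendrocyte lineage markers all were expressed, with Olig1 the highest at 706 ± 170 FPKM in Med23+/+ and 686 ± 108 FPKM after Med23 deletion (SD, n = 4 per genotype). All 6 microglia markers were below the filter, the highest being P2ry12 at 0.851 ± 0.164 FPKM in Med23+/+ and 0.978 ± 0.0577 FPKM after Med23 deletion (SD, n = 4 per genotype). All 4 endothelial markers were below it too, with Pecam1 the highest in Med23+/+ iOLs at 0.117 ± 0.0127 FPKM (SD, n = 4). Neuron and astrocyte markers were present and are given beside the genes they move with. Xist and 4 Y-linked genes marked Med23+/+ replicate 1 and Med23-/- replicate 2 as female and the other 6 libraries as male.

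Splicing regulators bind short sequences in the pre-mRNA and help or block the use of nearby splice sites, and a cell changes its set of isoforms by changing the balance between them. The quaking protein, a STAR-domain protein encoded by Qk, is the regulator best known in myelinating glia. Its loss from oligodendrocytes in the quaking mouse leaves thin and poorly compacted myelin, and the protein also controls the stability and export of myelin mRNAs. MBNL proteins promote adult splicing patterns and are often opposed by CELF proteins. PTB proteins repress exons that are used in neurons and muscle, and RBFOX proteins promote many of the exons used in those tissues. The protein of Hnrnpa1 commonly represses exons, while the SR protein of Srsf1 commonly promotes them.

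In Med23+/+ iOLs the order of the mean FPKM was Qk, Hnrnpa1, Srsf1, Celf1, Ptbp1, Ptbp2, Mbnl1, Mbnl2, Rbfox2 and Celf2. The range ran from 712 ± 63.5 FPKM for Qk to 17.3 ± 1.20 FPKM for Celf2 (SD, n = 4 per genotype), and 99.3% of the genes tested had a lower mean than Qk. Qk, Hnrnpa1 and Srsf1 each lay above the next gene in every library. The libraries of Celf1 and Ptbp1, of Ptbp1 and Ptbp2, of Mbnl1 and Mbnl2, and of Rbfox2 and Celf2 overlapped, so these neighbours were not separated by their spread. In Med23-/- iOLs Qk stayed first by its mean, but its libraries overlapped those of Hnrnpa1, and Celf2 and Rbfox2 had the seventh and eighth highest means, above those of Mbnl1 and Mbnl2. The libraries of Rbfox2 overlapped those of Mbnl1 and Mbnl2 there, and so did those of Celf1 and Ptbp2, of Ptbp2 and Ptbp1, of Ptbp1 and Celf2, and of Mbnl1 and Mbnl2.

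**Figure D1:**
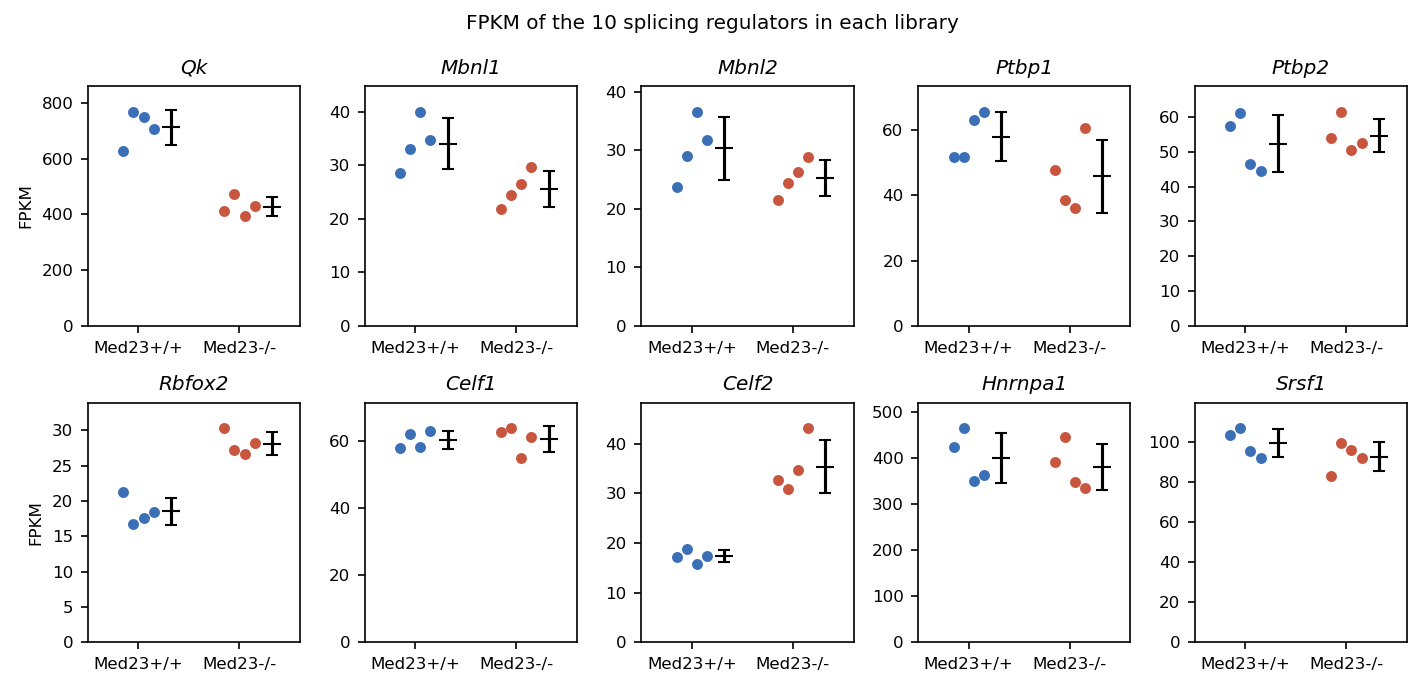
FPKM (y axis, linear and starting at 0, with its own scale in each panel) of the 10 regulators in the 4 Med23+/+ (blue) and 4 Med23-/- (red) libraries, drawn from replicate 1 to replicate 4, with the mean and SD of each genotype in black. The points of the genotypes do not overlap for Qk (395 to 473 against 626 to 768 FPKM), Rbfox2 and Celf2, and they overlap for the other 7 genes.

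Qk and Mbnl1 were lower and Rbfox2 and Celf2 were higher in Med23-/- iOLs, and the other 6 genes did not pass the test. The genotypes were compared with limma on log2(FPKM + 1) over all genes tested, and a gene was called at a Benjamini-Hochberg adjusted p under 0.05. Of all genes tested 30.0% were called, 14.1% lower and 15.9% higher, so 4 of 10 is near the share of genes in general. The median log2 difference of the 10 genes was -0.09, against -0.01 over all genes tested. With a fold change above 2 required in addition, taken on the log2(FPKM + 1) scale, none of the 10 was called. On the scale of mean FPKM, Celf2 alone lay above that limit (2.04-fold). On the log2(FPKM + 1) scale 4.73% of all genes tested passed, 1.75% lower and 2.98% higher. For 3 of the 10 genes the libraries of the genotypes did not overlap, as for 31.6% of all genes tested.

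**Figure D2:**
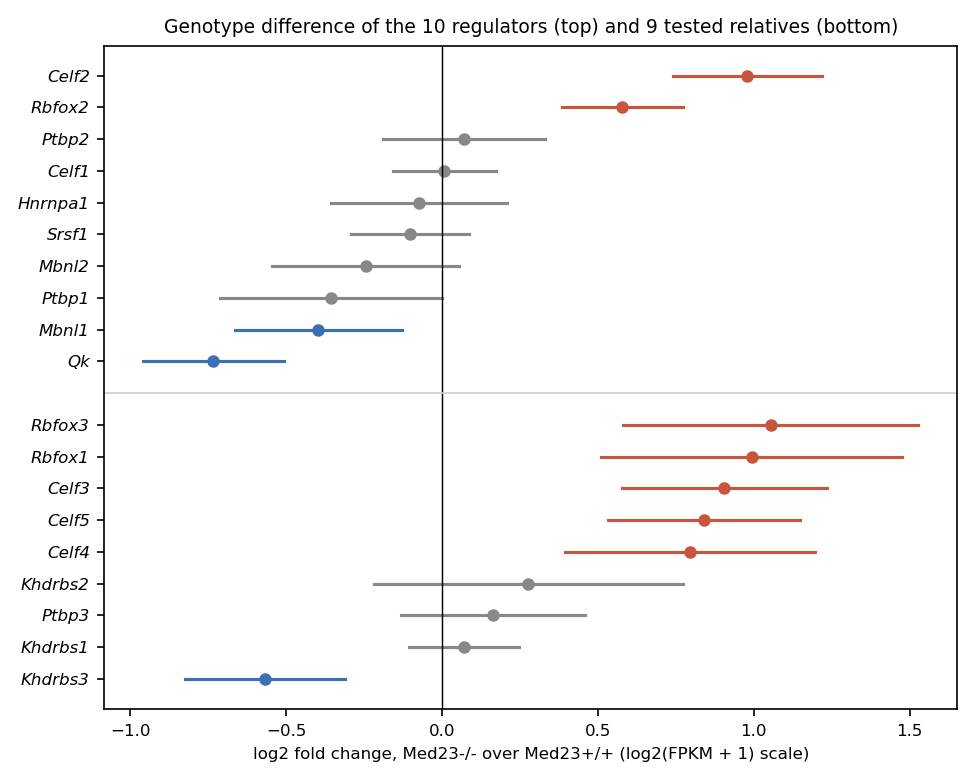
Log2 difference of Med23-/- over Med23+/+ iOLs (x axis, difference of mean log2(FPKM + 1)) with its 95% confidence interval for the 10 regulators (top) and the 9 tested members of the same families (bottom). Blue marks genes called lower, red genes called higher and grey genes not called at a limma adjusted p of 0.05. Qk (-0.73) and Celf2 (0.98) lie at the ends of the upper group, and 5 of the 9 relatives lie between 0.80 and 1.05.

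Qk (chromosome 17, 10202601 to 10319854 on mm10, reverse strand) has 4 protein-coding transcripts in GENCODE vM21 and overlaps no other annotated gene. The Med23+/+ libraries had 626, 768, 750.2 and 704 FPKM of Qk, in the order of the replicates. The Med23-/- libraries had 411, 473, 395 and 431 FPKM. The highest Med23-/- library was below the lowest Med23+/+ library, and the mean fell from 712 ± 63.5 to 427 ± 33.5 FPKM (SD, n = 4 per genotype), which is 0.600 times the level in Med23+/+ iOLs. The log2 difference was -0.73 (standard error 0.10, limma adjusted p = 0.000687). It stayed called with each library left out in turn, between -0.79 and -0.70.

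RefSeq lists 1 start site for Qk. The study asked how MED23 acts with Sp1, a factor that binds GC boxes, so the 250 bases upstream of each listed start were searched for GGGCGG on either strand (CCGCCC), counting overlapping matches. The Qk window holds 5 matches. A match was found in 58.5% of the 11940 windows listed for genes tested, and 5 or more in 4.09%. The window is GC-rich (84.8% G or C) and lies wholly inside annotated exon sequence. The gene as annotated in GENCODE begins further upstream, at 10319854. The 30-base stretches that carry the matches are shown to let the letters be seen, 5′ to 3′ on the reverse strand of mm10 (sequence from RefSeq, GRCm38.p6), with the matches in capitals.
Qk, chr17:10319582-10319611: ccGGGCGGcggcgagcgcagcgcgtcgcgg
Qk, chr17:10319473-10319502: gccgCCGCCCgcgtccccctcagccgcgac
Qk, chr17:10319434-10319463: gcgcGGGCGGccaccggcgcgcgtcctccc
Qk, chr17:10319379-10319408: cgtcCCGCCCgagcggccagGGGCGGcggc

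Of the other members, 8 have a listed start. The windows of Ptbp2 (6 matches) and Celf1 (4 matches) hold GC boxes too, and neither gene was called in the comparison of genotypes. Hnrnpa1 has 2 matches, Mbnl2 and Srsf1 have 1 each and Ptbp1 has 0. A match says that the letters are there and does not show that a factor binds.

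The libraries also differed in markers of stage and of astrocytes, a cell type that expresses Qk. Of the 8 oligodendrocyte lineage markers, 4 were lower and 2 higher in Med23-/- iOLs (background 14.1% lower and 15.9% higher). In a mixed culture fewer cells of a type and less RNA per cell cannot be told apart. The 6 astrocyte markers, of which Aldoc was highest at 50.7 ± 8.80 and 50.9 ± 10.6 FPKM (SD, n = 4 per genotype), summed to between 81.3 and 118 FPKM in Med23+/+ and between 63.9 and 100.9 FPKM in Med23-/- libraries. Of them 2 were lower and 1 was higher, beside the same background, and their part in the lower Qk was not tested. Without Med23-/- replicates 3 and 4, which had the highest neuron marker levels, the log2 difference of Qk was -0.69 (limma adjusted p = 0.00715).

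The RNAs that the quaking protein is known to bind or to help splice were taken from a list of 8 genes written from general knowledge, of which 7 were tested. Of these 5 were lower in Med23-/- iOLs, each by more than 2-fold, and none was higher (background 14.1% lower and 15.9% higher, and 1.75% lower by more than 2-fold). At an unadjusted p under 0.05, 6 were lower and 1 was higher. The median log2 difference was -1.78. Several are myelin genes that belong to the late stage of the lineage, so the list was not chosen independently of the known outcome of the experiment, and in these genes the level of Qk and the stage of the cells cannot be told apart.

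Mag, the myelin-associated glycoprotein gene whose exon choice depends on the quaking protein, had between 11.6 and 19.6 FPKM in Med23+/+ and between 0.597 and 1.47 FPKM in Med23-/- libraries (log2 difference -3.03, limma adjusted p = 1.86e-05). Mbp, whose mRNA is exported and stabilised by the quaking protein, fell from 64.4 ± 10.2 to 13.4 ± 2.88 FPKM (SD, n = 4 per genotype), a log2 difference of -2.19 (limma adjusted p = 2.89e-05). In neither gene did the libraries of the genotypes overlap. Their log2 differences were larger in size than that of Qk itself.

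Map1b, which encodes a microtubule-associated protein, fell from 71.3 ± 17.5 to 20.0 ± 3.81 FPKM (SD, n = 4 per genotype; log2 difference -1.78, limma adjusted p = 0.000126). Nfasc, which encodes the adhesion molecule neurofascin, fell from 71.8 ± 9.83 to 25.98 ± 4.26 FPKM (SD, n = 4 per genotype; log2 difference -1.44, limma adjusted p = 9.17e-05). Cdkn1b, the gene of the cell cycle inhibitor p27, was at 41.8 ± 2.45 in Med23+/+ and 48.3 ± 4.28 FPKM after Med23 deletion (SD, n = 4 per genotype) and did not pass the test (log2 difference 0.20, limma adjusted p = 0.0917). Wdr1, which encodes a protein that helps disassemble actin filaments, was at 142 ± 10.2 and 120.3 ± 15.8 FPKM (SD, n = 4 per genotype; log2 difference -0.24, limma adjusted p = 0.115). Egr2 was below the filter, with at most 0.692 FPKM in any library. The list therefore held myelin and cytoskeletal genes that fell by more than Qk and others that were not called.

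Mbnl1 (chromosome 3, 60472830 to 60629750) had 28.5, 33.1, 40.03 and 34.7 FPKM in Med23+/+ replicates 1 to 4 and 21.8, 24.5, 26.5 and 29.6 FPKM in Med23-/- replicates 1 to 4. The lowest Med23+/+ library, replicate 1, lay below the highest Med23-/- library, replicate 4, so the genotypes overlapped. The mean fell from 34.1 ± 4.76 to 25.6 ± 3.31 FPKM (SD, n = 4 per genotype), a log2 difference of -0.40 (standard error 0.12, limma adjusted p = 0.0319). This call depended on single libraries. It was kept without Med23+/+ replicate 1 or Med23-/- replicate 4 and lost in the other 6 fits that left out a library (limma adjusted p up to 0.0855).

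Mbnl2 (chromosome 14, 120275669 to 120431697) had 23.8, 29.0, 36.6 and 31.8 FPKM in Med23+/+ and 21.4, 24.4, 26.3 and 28.9 FPKM in Med23-/- libraries. Its library values followed the same order as those of Mbnl1 in each genotype. The means were 30.3 ± 5.35 and 25.3 ± 3.14 FPKM (SD, n = 4 per genotype), and the log2 difference of -0.24 did not pass the test (95% confidence interval -0.54 to 0.05, limma adjusted p = 0.201). Mbnl3, the remaining MBNL gene, was below the filter in all libraries, with at most 0.0863 FPKM.

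Mbnl1 has 2 listed starts that differ in their letters, and the FPKM of the gene does not say which was in use. The window of the first is AT-rich (38.0% G or C) and holds 0 GC boxes, and it lies outside annotated exons. The window of the second holds 4, of which 3 overlap each other in the stretch next to the start that lies outside exons. These are shown 5′ to 3′ on the forward strand of mm10 (RefSeq, GRCm38.p6), with the matches in capitals, as an example of starts of the same gene with unlike promoters.
Mbnl1 first start, chr3:60472580-60472829: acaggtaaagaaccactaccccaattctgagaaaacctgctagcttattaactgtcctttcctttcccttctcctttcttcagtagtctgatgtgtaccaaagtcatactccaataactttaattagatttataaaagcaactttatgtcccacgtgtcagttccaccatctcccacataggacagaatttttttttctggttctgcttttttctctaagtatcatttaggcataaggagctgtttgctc
Mbnl1 second start, chr3:60501095-60501178: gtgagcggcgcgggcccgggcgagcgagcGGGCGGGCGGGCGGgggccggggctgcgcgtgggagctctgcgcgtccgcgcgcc

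Celf2 (chromosome 2, 6539694 to 7509563) showed the largest increase of the 10 genes. The Med23+/+ libraries had 17.3, 18.8, 15.9 and 17.4 FPKM. The Med23-/- libraries had 32.7, 30.9, 34.8 and 43.1 FPKM, all above every Med23+/+ library, and replicate 4 was the highest. The mean rose from 17.3 ± 1.20 to 35.4 ± 5.39 FPKM (SD, n = 4 per genotype), which is 2.04 times the Med23+/+ mean. On the log2(FPKM + 1) scale the change was 0.98 (standard error 0.11, limma adjusted p = 0.000196), just under the 2-fold limit, and with a pseudocount of 0.1 it was 1.02.

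Celf2 has 5 listed starts spread over the gene, 2 of which hold GC boxes, and 18 protein-coding transcripts, and it overlaps 7 other annotated genes, whose reads may be shared with it since use of strand is not given in the sources used here. The window with the most matches (3, of which 2 overlap by 1 base) lies outside annotated exons. Of the windows listed for genes tested, 16.9% held 3 or more matches. The Celf2 window is shown 5′ to 3′ on the reverse strand of mm10 (RefSeq, GRCm38.p6) with the matches in capitals, to let the letters be seen.
Celf2, chr2:6872036-6872285: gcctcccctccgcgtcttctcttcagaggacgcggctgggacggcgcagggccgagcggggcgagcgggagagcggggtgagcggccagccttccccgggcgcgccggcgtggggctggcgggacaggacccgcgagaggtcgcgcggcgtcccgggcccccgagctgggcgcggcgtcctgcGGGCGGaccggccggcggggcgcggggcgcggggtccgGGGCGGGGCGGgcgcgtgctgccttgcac

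Celf1 (chromosome 2, 90940382 to 91019497), the paralogue of Celf2, had between 58.1 and 62.9 FPKM in Med23+/+ and between 55.1 and 63.9 FPKM in Med23-/- libraries. Its log2 difference was 0.01 and did not pass the test, with a 95% confidence interval of -0.16 to 0.17 (limma adjusted p = 0.954). The sign of this small value turned to -0.01 under median-ratio scaling.

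Rbfox2 (chromosome 15, 77078990 to 77307004) had 21.2, 16.8, 17.6 and 18.4 FPKM in Med23+/+ replicates 1 to 4. In the Med23-/- libraries it had 30.3, 27.2, 26.6 and 28.2 FPKM, with no overlap between the genotypes. Its mean rose from 18.5 ± 1.92 to 28.1 ± 1.62 FPKM (SD, n = 4 per genotype), a log2 difference of 0.58 (standard error 0.09, limma adjusted p = 0.00110). It stayed called with each library left out in turn, between 0.54 and 0.64. The Celf2 increase stayed called as well, between 0.88 and 1.04. Like Celf2, Rbfox2 overlaps other annotated genes (4), and so does Mbnl1 (2), so reads may be shared there too.

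Other members of the CELF and RBFOX families, which are used mostly in neurons, were higher too. Of 11 relatives of the 10 genes, 9 were tested, and 5 were higher and 1 was lower in Med23-/- iOLs, where the background was 15.9% higher and 14.1% lower. The 5 were Rbfox1, Rbfox3, Celf3, Celf4 and Celf5, and their levels were low. Rbfox3, which encodes the neuronal nuclear antigen NeuN, rose from 2.45 ± 0.785 to 6.23 ± 1.81 FPKM (SD, n = 4 per genotype; log2 difference 1.05, limma adjusted p = 0.00508). Rbfox1 rose from 1.32 ± 0.285 to 3.77 ± 1.51 FPKM (SD, n = 4 per genotype; log2 difference 0.99, limma adjusted p = 0.00742). Log2 differences were 0.91 for Celf3, 0.80 for Celf4 and 0.84 for Celf5, with limma adjusted p of 0.00167, 0.00898 and 0.00176. Celf6 was below the filter, at 0.769 ± 0.257 in Med23+/+ and 1.20 ± 0.260 FPKM after Med23 deletion (SD, n = 4 per genotype).

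Neuron markers moved with these genes. Of 9 neuron markers, which include Rbfox3, 7 were higher in Med23-/- iOLs and none was lower (background 15.9% higher and 14.1% lower). Syp, the marker with the highest level, was at 26.2 ± 3.34 and 33.8 ± 5.24 FPKM and did not pass the test (SD, n = 4 per genotype; limma adjusted p = 0.0647). The 9 markers summed to between 69.9 and 106 FPKM in Med23+/+ libraries and to between 124 and 237 FPKM in Med23-/- libraries, with the highest sums in Med23-/- replicates 3 and 4. Without those libraries the log2 difference was 0.84 for Celf2 (limma adjusted p = 0.00101) and 0.61 for Rbfox2 (limma adjusted p = 0.00738). Among the 4 Med23-/- libraries, the higher Celf2 values were in replicates 3 and 4 (34.8 and 43.1 FPKM), while Rbfox2 was highest in replicate 1 and lowest in replicate 3. Of the relatives, Celf4 was then no longer called (0.57, limma adjusted p = 0.0724) and Khdrbs2 was (0.61, limma adjusted p = 0.0337), so that 5 were again higher. Every remaining Med23-/- library still had a higher sum than every Med23+/+ library, and the part of the neuron markers in these increases was not tested further.

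**Figure D3:**
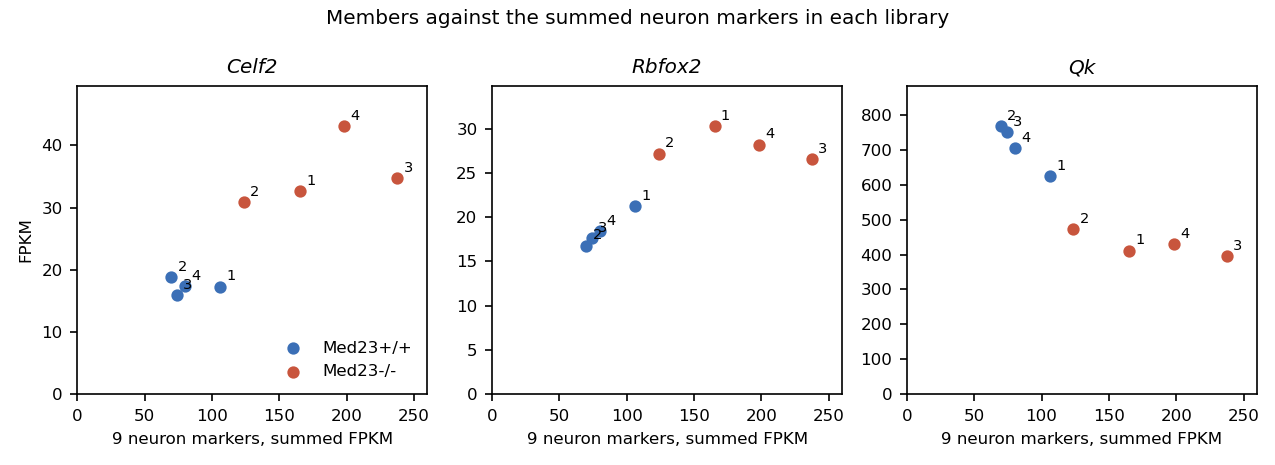
FPKM of Celf2, Rbfox2 and Qk (y axes, from 0) against the summed FPKM of the 9 neuron markers (x axis) in the 4 Med23+/+ (blue) and 4 Med23-/- (red) libraries, numbered by replicate. The Med23-/- libraries lie to the right, at 124 to 237 FPKM of the markers, and within them the higher Celf2 values (34.8 and 43.1 FPKM) are at the higher marker sums, while the highest Rbfox2 value (30.3 FPKM) is not.

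Ptbp1 (chromosome 10, 79854427 to 79864771), whose protein holds back exons of the neuronal programme, had 51.6, 51.6, 63.1 and 65.6 FPKM in Med23+/+ replicates 1 to 4. The Med23-/- libraries had 47.6, 38.6, 36.1 and 60.7 FPKM, and replicate 4 stood above the other 3. The means were 58.0 ± 7.43 and 45.7 ± 11.1 FPKM (SD, n = 4 per genotype). The log2 difference of -0.36 did not pass the test (95% confidence interval -0.71 to 0.00, limma adjusted p = 0.122). Without Med23-/- replicate 4 it was -0.50 and passed (limma adjusted p = 0.0179), so that library decided the call.

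Ptbp2 (chromosome 3, 119718742 to 119784466), the paralogue used in neurons and held back by the protein of Ptbp1, had 57.4, 61.2, 46.4 and 44.4 FPKM in Med23+/+ libraries. It had 54.1, 61.5, 50.5 and 52.6 FPKM in Med23-/- libraries. The genotypes overlapped, and the log2 difference was 0.07 (95% confidence interval -0.19 to 0.33, limma adjusted p = 0.691). Replicates 1 and 2 were above replicates 3 and 4 in each genotype. The reverse order held for Ptbp1 among the Med23+/+ libraries only. Ptbp3, the remaining relative, was at 14.3 ± 2.58 and 15.95 ± 1.5 FPKM (SD, n = 4 per genotype; log2 difference 0.16, limma adjusted p = 0.385).

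Hnrnpa1 (chromosome 15, 103240432 to 103246692), whose mRNA the quaking protein is known to bind, was the second most abundant of the 10. It had 424, 465, 350.5 and 363 FPKM in Med23+/+ and 391, 446, 348 and 336 FPKM in Med23-/- libraries. Replicates 1 and 2 were higher than replicates 3 and 4 in both genotypes, and the genotypes overlapped. The log2 difference of -0.07 did not pass the test (95% confidence interval -0.36 to 0.21, limma adjusted p = 0.699), and its sign changed to 0.07 without Med23-/- replicates 3 and 4.

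Srsf1 (chromosome 11, 88047373 to 88053755) had between 91.7 and 107 FPKM in Med23+/+ and between 82.7 and 99.3 FPKM in Med23-/- libraries. The log2 difference was -0.10 and did not pass the test (95% confidence interval -0.29 to 0.09, limma adjusted p = 0.393), and it became 0.03 under quantile normalization. Across the 6 members that were not called, the confidence intervals reached no further than -0.71 and 0.33 on the log2 scale.

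The balance between paralogues was compared as the log2 ratio of (FPKM + 1) in each library for 3 pairs, by a two-sided exact permutation test over the 8 libraries, adjusted over the 3 pairs. The ratio of Celf2 to Celf1 was -1.69, -1.68, -1.81 and -1.80 in Med23+/+ replicates 1 to 4 and -0.92, -1.02, -0.65 and -0.50 in the Med23-/- libraries. The genotypes did not overlap (difference 0.97, exact permutation p = 0.0286, adjusted p = 0.0429), and 0.0286 is the smallest p that 4 against 4 libraries can give. Celf2 thus stood at 0.287 times the FPKM of Celf1 in Med23+/+ and at 0.582 times in Med23-/- iOLs. Since the log2 difference of Celf1 was 0.01, this ratio restates the Celf2 increase of 0.98 and is not a separate result.

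The ratio of Mbnl2 to Mbnl1 was higher in Med23-/- iOLs by a small amount. It ran from -0.25 to -0.12 in Med23+/+ libraries and from -0.03 to 0.00 in Med23-/- libraries, again without overlap (difference 0.15, exact permutation p = 0.0286, adjusted p = 0.0429). The SD of this ratio was 0.06 in Med23+/+ and 0.01 in Med23-/- iOLs (n = 4 per genotype). The ratio of Ptbp2 to Ptbp1 ran from -0.55 to 0.24 in Med23+/+ and from -0.20 to 0.66 in Med23-/- libraries. Its difference of 0.43 was within the spread of the libraries (exact permutation p = 0.171, adjusted p = 0.171).

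**Figure D4:**
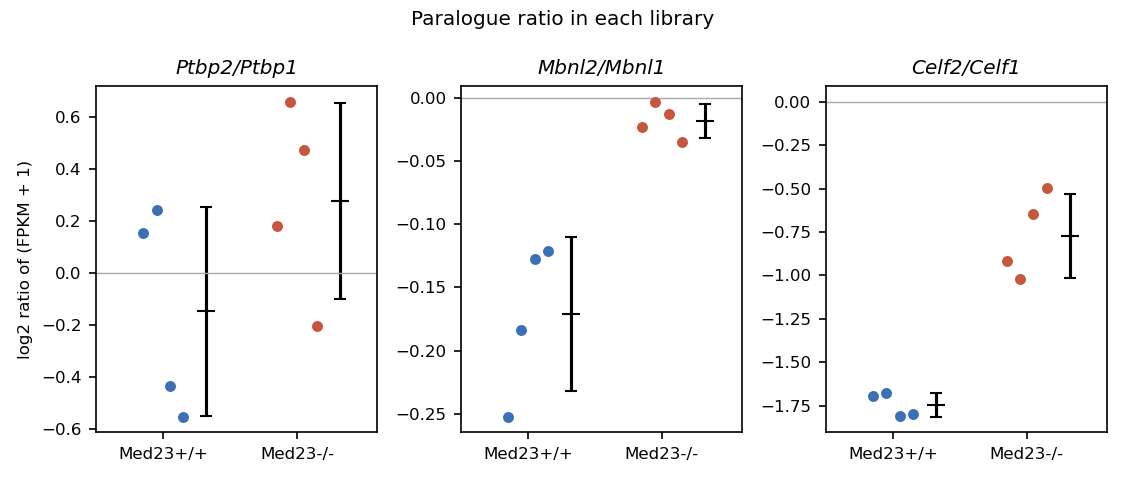
Log2 ratio of (FPKM + 1) of 3 pairs of paralogues (y axes, each with its own scale, grey line at a ratio of 0) in the 4 Med23+/+ (blue) and 4 Med23-/- (red) libraries, with mean and SD in black. The genotypes are apart for Celf2/Celf1 (means -1.74 and -0.77) and for Mbnl2/Mbnl1 (means -0.17 and -0.02), and overlap for Ptbp2/Ptbp1.

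The general splicing machinery was compared through lists of genes, against the same background of 14.1% lower and 15.9% higher. Of 24 hnRNP genes, all tested, 0 were called by limma in either direction, and at an unadjusted p under 0.05, 2 were lower and 0 higher. Without Med23-/- replicate 4 the number of hnRNP genes called lower was 4. Of 12 SR protein genes 1 was lower, Srsf9, which fell from 65.5 ± 6.32 to 51.3 ± 5.29 FPKM (SD, n = 4 per genotype; log2 difference -0.35, limma adjusted p = 0.0242). Of 30 genes of the core spliceosome 1 was lower, Prpf31, a component of the U4/U6 particle, at 14.5 ± 0.699 and 11.5 ± 1.67 FPKM (SD, n = 4 per genotype; log2 difference -0.32, limma adjusted p = 0.0369). The Srsf9 call was lost without Med23+/+ replicate 4 or without Med23-/- replicate 2 or 3, and the Prpf31 call was kept in only 1 of the 8 fits that left out a library, the one without Med23-/- replicate 4 (limma adjusted p up to 0.0698 and 0.0938). At an unadjusted limma p under 0.05, 4 SR genes were lower and 0 higher, and 1 core spliceosome gene was lower and 2 higher. The medians of the hnRNP, SR and core spliceosome lists were -0.06, -0.12 and -0.04 on the log2 scale, against -0.01 over all genes tested.

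Of 8 genes for SR protein kinases and the SR importer Tnpo3, 1 was lower. It was the kinase gene Srpk3, named after its value was seen because its mean was under 5 FPKM. Srpk3 had 7.20, 6.48, 8.55 and 7.56 FPKM in Med23+/+ and 1.78, 2.43, 1.87 and 0.666 FPKM in Med23-/- libraries (log2 difference -1.70, limma adjusted p = 0.000302). It was the only one of the 8 whose fold change was above 2. Its relatives Srpk1 and Srpk2, named for comparison after their values were seen, were not called, with log2 differences of -0.17 and -0.12 (limma adjusted p = 0.140 and 0.364).

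Of 13 RNA-binding proteins known from the nervous system, 4 were higher and 2 were lower in Med23-/- iOLs (background 15.9% higher and 14.1% lower), with a median log2 difference of 0.09. Elavl4 rose from 8.88 ± 0.707 to 19.0 ± 3.49 FPKM and Elavl2 from 11.4 ± 1.29 to 18.1 ± 1.79 FPKM (SD, n = 4 per genotype), with log2 differences of 1.00 and 0.63 (limma adjusted p = 0.000348 and 0.00164). They encode neuronal Hu proteins, which bind AU-rich mRNA. The gene of another neuronal Hu protein, Elavl3, had 24.6 ± 2.23 and 21.8 ± 2.91 FPKM (SD, n = 4 per genotype) and was not called (log2 difference -0.17, limma adjusted p = 0.261), nor were Nova1 and Nova2, with 0.08 each (limma adjusted p = 0.568 and 0.597). These 3 are named after their values were seen. Srrm4, the regulator of neuronal microexons, was also higher (0.984 ± 0.369 and 3.0 ± 0.891 FPKM, SD, n = 4 per genotype, limma adjusted p = 0.00444) and is named after its value was seen, since its mean was under 5 FPKM. The neuron markers given above were higher in the same libraries, and their part in these increases was not tested.

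The fragile X family moved in both directions. Fmr1 rose from 22.7 ± 1.75 to 32.6 ± 4.19 FPKM (SD, n = 4 per genotype; log2 difference 0.50, limma adjusted p = 0.00578). Its paralogue Fxr2 fell from 39.7 ± 2.41 to 27.9 ± 3.43 FPKM and Fxr1 from 65.5 ± 6.70 to 53.8 ± 3.06 FPKM (SD, n = 4 per genotype), with log2 differences of -0.50 and -0.28 (limma adjusted p = 0.00428 and 0.0397). The Fxr1 call was kept without Med23+/+ replicate 1 or Med23-/- replicate 4 and lost in the other 6 fits that left out a library (limma adjusted p up to 0.106). Among the STAR-domain relatives of Qk, Khdrbs3 fell from 79.3 ± 11.2 to 53.02 ± 6.09 FPKM (SD, n = 4 per genotype; log2 difference -0.57, limma adjusted p = 0.00527). Khdrbs1 and Khdrbs2 were not called, with log2 differences of 0.07 and 0.28 (limma adjusted p = 0.544 and 0.383).

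**Figure D5:**
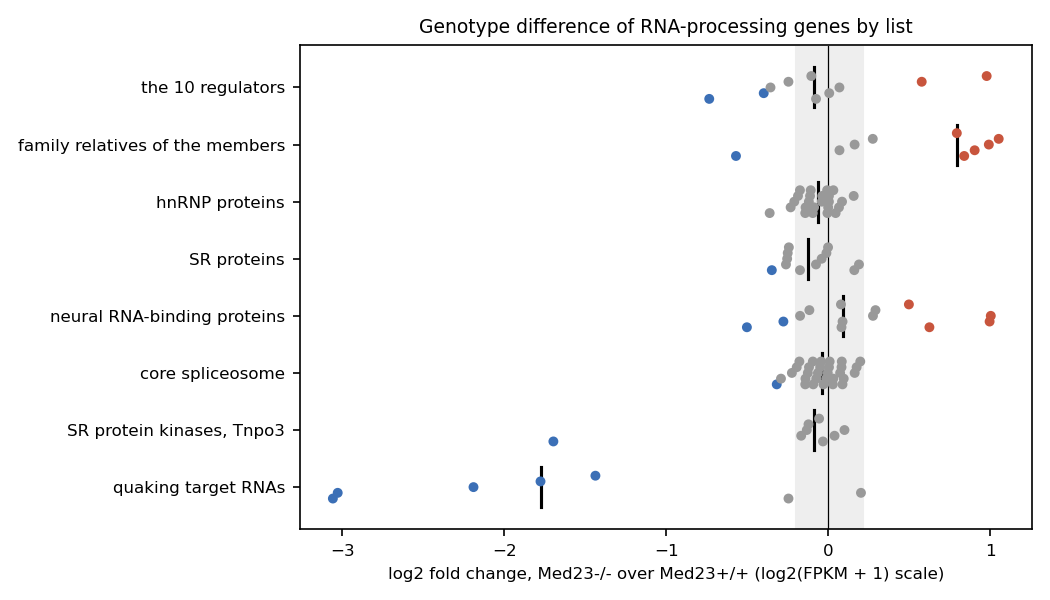
Log2 difference of Med23-/- over Med23+/+ iOLs (x axis) for each tested gene of the 10 regulators and of 7 other lists (rows), with the median of each list as a black bar and the interquartile range of all genes tested as a grey band. Blue and red mark genes called lower and higher, grey genes not called. The hnRNP and core spliceosome genes sit around 0 (medians -0.06 and -0.04), while the quaking target RNAs have a median of -1.78.

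Profiles like that of Qk were ranked by the root-mean-square difference between log2(FPKM + 1) values centred per gene over the 8 libraries, among 9433 other genes whose mean reached 5 FPKM. The nearest were Gnptab (0.08), which encodes a subunit of the enzyme that tags lysosomal proteins, Hspb11 (0.08) and Cbfb (0.08), which encodes the partner of the RUNX factors. Among the 10 members the nearest to Qk was Mbnl1, at 0.23, and the farthest was Celf2, at 0.88. These distances are a description over 8 libraries that share 2 genotypes.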

How the data were processed

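RNA-seq values of 8 iOL libraries, 4 Med23+/+ and 4 Med23-/-, were used. The authors used Cutadapt for trimming and Tophat2 for alignment to mm10, and deposited FPKM values per library from cuffdiff with options -b and -u. Tool versions, the annotation and the library normalization are not given in the sources used here. The table also holds the authors' genotype means, fold changes and p-values, which were not used, and 0 library columns were left out.

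Values were compared as log2(FPKM + 1), which understates changes of weakly expressed genes, over genes whose mean reached 1 FPKM. Limma 3.58.1 in R 4.3.3 (lmFit, eBayes with a trend) gave p-values, adjusted over all 12328 genes. The comparison was tested on simulated data. It called 25 of 50 genes given a log2 change of 0.5, 48 of 50 given a change of 1, and 7 of 12128 unchanged genes. Changes near 0.5 or smaller can therefore be missed, and a gene not called is not shown to be unchanged. For single values an exact permutation test, two-sided, was used. Depth is unknown, so no counting error is given. Replicate numbers were not used as pairs, since deviations of same-numbered libraries correlated from -0.10 to 0.16. The Med23-/- library that correlated best was replicate 2 for Med23+/+ replicate 1 and replicate 1 for Med23+/+ replicate 2. For Med23+/+ replicates 3 and 4 it was Med23-/- replicate 4. A split of replicates 1 and 2 from 3 and 4 shared by the genotypes may therefore exist, and it was run as an alternative.

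The members and lists were chosen with earlier results of these data known. Named genes are the members, their relatives, the quaking targets (1 is counted in its list but not reported here), in each other list up to 3 called genes per direction with a mean of at least 5 FPKM, the highest marker of each cell type, and the 3 profiles nearest to Qk. Coordinates are from GENCODE vM21 and promoter sequences from RefSeq GRCm38.p6, both on mm10. Of the 10 members, 9 had a listed start. Python 3.11.15 and matplotlib 3.10.9 were used. The alternatives were another pseudocount, filter, scaling and variance model, the replicate block, a split of replicates 1 and 2 from 3 and 4, the fold limit and leaving out each library. Sex as a covariate and leaving out Med23-/- replicates 3 and 4 were added after seeing the data.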

Additional observations from a re-analysis of the deposited data

How the results depend on the processing

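Qk, Rbfox2, Celf2 and Med23 kept their direction and their call under every alternative run apart from the fold limit, and with each library left out. Over the settings other than leaving out 1 library, the log2 fold changes ran from -0.75 to -0.67 for Qk, 0.56 to 0.63 for Rbfox2 and 0.84 to 1.03 for Celf2, and Mbnl1 stayed called between -0.53 and -0.33. The limma adjusted p of Mbnl1 ran from 0.00851, with replicates 1 and 2 against 3 and 4 as a covariate, to 0.0480, with all genes above 0 tested. With a fold change above 2 required in addition, Qk (-0.73), Mbnl1 (-0.40), Rbfox2 (0.58), Celf2 (0.98) and Med23 (-0.55) were no longer called, by the construction of that limit. It left 216 genes lower and 367 higher of all genes, 0 members lower and 0 higher, 0 relatives lower and 1 higher, 0 SR, 0 neural and 0 core spliceosome genes lower and 1 neural gene higher.

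With libraries left out in turn, Mbnl1 ran from -0.48 to -0.32, Ptbp1 from -0.50 to -0.25, Ptbp2 from -0.0036 to 0.15, Celf1 from -0.017 to 0.053 and Hnrnpa1 from -0.15 to 0.00033. The number of members called lower then ran from 1 to 3, of hnRNP genes lower from 0 to 4, of SR genes lower from 0 to 2, of core spliceosome genes lower from 0 to 2 and of neural genes lower from 1 to 2. Small values changed sign for Celf1 under median-ratio scaling (-0.0064), for Srsf1 under quantile normalization (0.029) and for Hnrnpa1 without Med23-/- replicates 3 and 4 (0.070). The causes were not tested.

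Under the filter at 5 FPKM, which tests fewer genes, 1281 of all genes and 3 relatives were called higher, and 0 SR kinase genes lower. Under median-ratio scaling 1 hnRNP gene was lower. Quantile normalization gave 0 SR genes and 1 neural gene lower, and 2 core spliceosome genes and 1 quaking target higher. Without the variance trend 1 neural gene was lower, and with all genes above 0 tested 0 core spliceosome genes were. Without Med23-/- replicates 3 and 4 the lower genes were 2 hnRNP, 0 SR, 1 neural and 3 core spliceosome genes.

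With the replicate number as a block, 2 SR genes were lower, and the paralogue differences of 0.15 for Mbnl2/Mbnl1 and 0.97 for Celf2/Celf1 had a sign-flip permutation p of 0.125, the smallest that 4 pairs can give. The block changed no call of a member. Same-numbered libraries did not correlate over 0.1 in every pair, so the numbers were not taken to pair the libraries. FPKM without counts limits what can be said of genes near the filter, such as Srrm4, Rbfox1 and Celf6.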
